A study of Saccharomyces cerevisiae with 4 samples.

Results

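The 10 genes described here belong to the switch by which the budding yeast Saccharomyces cerevisiae turns glucose repression on and off. They were chosen by systematic name, with their readings on the BF2B slides already known, from 6388 gene probes. They comprise the kinase regulator REG1 (YDR028C), the repressors MIG1 (YGL035C) and MIG2 (YGL209W), the activators SIP4 (YJL089W), CAT8 (YMR280C) and ADR1 (YDR216W), the gluconeogenic genes FBP1 (YLR377C) and PCK1 (YKR097W), and the little studied YGR067C and YKR075C. Because measured values selected them, every value on the BF2B slides below is a description and no test was made.

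Total RNA was compared on 4 two-colour oligonucleotide slides after the cultures had spent 45 min in 0.6 mol/L NaCl. The reference strain in every hybridisation, BF2, was bdf1∆ with the plasmids pYX242 and pRS316. BF2B was bdf1∆bdf2∆ with a construct written BDF2 L and with pYX242, and BF2S was bdf1∆bdf2∆ with BDF2 L and a construct written SIR2 H. All 3 strains therefore lacked BDF1 and all were salt treated, so neither the effect of salt nor that of BDF1 could be read from these slides. Bdf1 and Bdf2 are related bromodomain proteins, readers of acetylated histones, and Sir2 is a histone deacetylase of silent chromatin. The sources used here do not give the meaning of L and H or the carbon source of the cultures. BF2B and BF2S were each hybridised with BF2 on 2 slides, with the strain in Cy5 on slide 1 and in Cy3 on slide 2. Since the labels describe a pair of hybridisations with reversed dyes for each test and control sample, both slides were taken as 1 RNA pair and 1 replicate, so each SD is the technical spread of 2 hybridisations and no p-value is given.

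In yeast growing on glucose, a protein phosphatase made of Glc7 and its regulatory subunit Reg1 keeps the kinase Snf1 inactive, and Mig1 then represses genes for other carbon sources together with the corepressor Cyc8-Tup1. When glucose runs out, Snf1 phosphorylates Mig1, which leaves the nucleus, and the activators Cat8, Sip4 and Adr1 take over. Cat8 and Sip4 turn on gluconeogenesis and the glyoxylate cycle, and Adr1 turns on genes for ethanol, glycerol and fatty acid use. Much of this switch works through protein phosphorylation and location, which messenger RNA levels do not show.

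Signals are brightness units above local background, as the mean of the 3 spots of a probe. For a channel to count as above background, 2 or more of its 3 spots had to exceed the mean of the local background by 2 SD. On the BF2B slides this rule was met more often in Cy5. On slide 1 it passed 77.2% of genes for BF2B in Cy5 and 42.7% for BF2 in Cy3. On slide 2 it passed 44.9% for BF2B in Cy3 and 75.1% for BF2 in Cy5. A gene above background in only the Cy5 channel of a slide therefore need not differ between the strains. Log2 ratios of strain over BF2 were taken after background correction and an intensity-dependent (loess) correction of each slide, so they differ from the plain ratio of the printed signals. To be called higher or lower, a gene had to pass 2-fold on each slide with the same sign, with 1 or both channels of each slide above background. On the BF2B slides the 95th percentile of blank spots lay between 61 and 226 units in the 4 channels. The deleted BDF1 was not above background there, whereas BDF2 stood at a log2 ratio of 1.61 ± 0.03. LEU2, the marker of pYX242 in both strains, stood at -2.47 ± 0.20, number 2 from the bottom among 4660 genes above background. It was thus called lower in BF2B although both strains are labelled with that plasmid, and the reason was not tested. URA3, the marker of pRS316 in BF2, stood at -1.12 ± 0.08. The blank spots of the BF2S slides were bright: their median was 6049 and 5325 units for BF2S, and 1709 and 1768 units for BF2. The BDF1 probe gave a log2 ratio of 1.64 ± 0.28 on them although every strain lacks the gene. SIR2 and BDF2, named in the constructs of BF2S, stood at 1.51 ± 0.18 and 0.65 ± 0.61 there, and BDF2 was not called. The BF2S values are therefore kept apart at the end and are given as those of the sample labelled BF2S.

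In BF2B against BF2 the transcripts of the 2 poorly characterised genes were higher, that of the activator gene SIP4 was lower, and the repressor genes MIG1 and MIG2 stayed under 2-fold. RNA came from whole cultures, so fewer expressing cells and less RNA per cell cannot be told apart. Of the 10 genes, 6 were above background, 2 were called higher, 1 was called lower and 3 were not called. Across the array 139 of 4660 genes above background were called (2.98%), of which 64 were higher (1.37%) and 75 lower (1.61%). Since the 10 genes were picked with these ratios known, the share called among them supports nothing. The remaining 4 genes, CAT8, REG1, FBP1 and PCK1, had no channel above background on either slide, so their ratios, where printed, give no level in either strain.

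**Figure D1:**
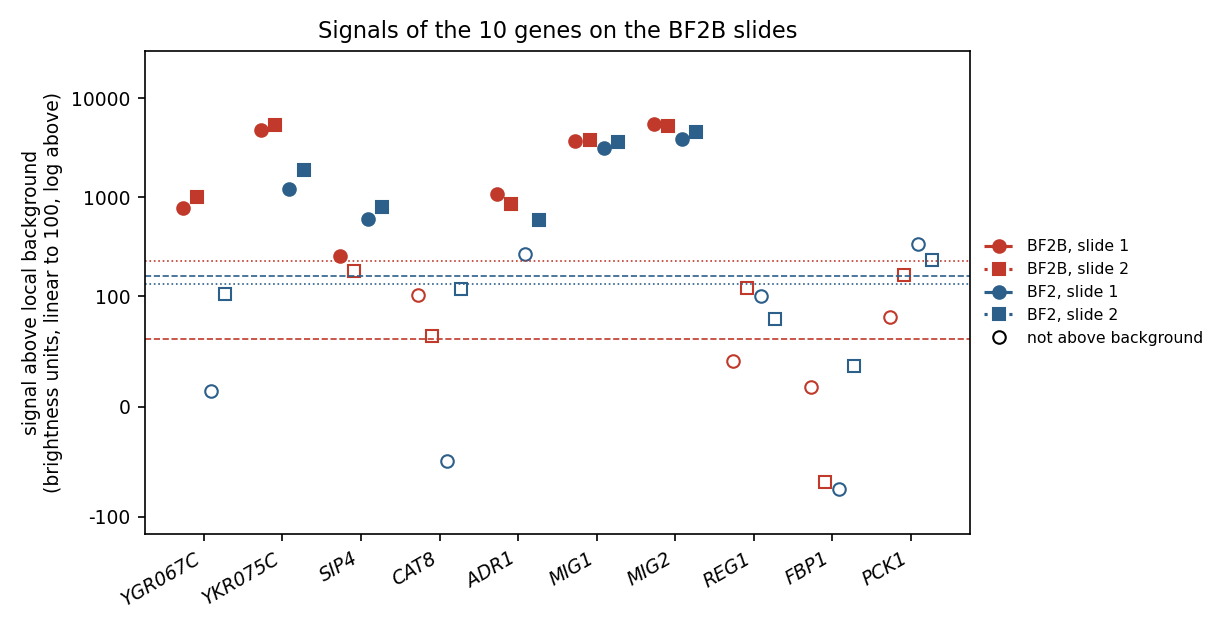
Signals of the 10 genes on both BF2B slides in brightness units above local background, on an axis that is linear up to 100 and logarithmic above. Red symbols stand for BF2B and blue ones for BF2, circles for slide 1 and squares for slide 2, open symbols for channels not above background, and dashed (slide 1) and dotted (slide 2) lines for the 95th percentile of blank spots. YKR075C, MIG1 and MIG2 were above background in all 4 channels, whereas CAT8, REG1 and FBP1 lay at or below 120 units throughout.

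YKR075C encodes a protein of unknown function with sequence similarity to Reg1. Its signal in BF2B was 4767 units on slide 1 and 5402 units on slide 2. In BF2 it was 1204 and 1894 units on the same slides. Both BF2B signals lay above both BF2 signals, and all 4 were above background. The log2 ratio was 1.81 on slide 1 and 1.66 on slide 2, a mean of 1.73 ± 0.11 or 3.32-fold. All 6 spots gave ratios between 1.51 and 1.88, so the difference exceeded the spread between spots and between dye orientations. In mean log2 ratio it was number 11 from the top among the 4660 genes above background. YKR075C was the only one of the 10 genes still called when both channels had to be above background, a rule under which 3.72% of 2529 genes were called. Its duplicate gene YOR062C lay on the other side of 0, with a log2 ratio of -0.38 ± 0.21, and was not called.

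YGR067C encodes a protein with zinc fingers like those of Adr1 and is otherwise of unknown function. It read 772 and 1011 units in BF2B against 14 and 107 units in BF2. The BF2B signals were well clear of the blank spots, whereas neither BF2 signal was above background, so the transcript was seen in BF2B and not in BF2. The corrected log2 ratios were 1.99 and 2.57, with spots between 1.97 and 2.78. Because the BF2 side has no measured level, only a conventional bound is given, 2.37-fold higher in BF2B. The bound compares the mean normalised level of BF2B with the lowest level counted as above background in BF2, or the gene's own if higher. It is no guaranteed minimum, since the gene CTA1 with 510 units in BF2 on slide 1 was not above background either. All 3 spots of slide 1 carry the files' unexplained mark, so the gene has no value on both slides when marked spots are left out.

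SIP4 encodes a zinc cluster activator that binds the carbon source response elements of gluconeogenic genes and whose own transcription depends on Cat8. It gave 255 and 182 units in BF2B beside 597 and 801 units in BF2. Both BF2 signals were above background and exceeded both BF2B signals, of which only that of slide 1 was above background. The log2 ratio was -1.11 on slide 1 and -1.25 on slide 2, a mean of -1.18 ± 0.10 or 2.26-fold lower in BF2B, a size that rests on 1 slide with a measured BF2B level. The 6 spots lay between -1.49 and -0.98, all below 0. Among the 10 genes SIP4 was the called one nearest to the 2-fold limit, with a log2 size of 1.11 on its nearer slide. It was not called without background subtraction. Nor was it called when the marked spots of all genes were left out and loess was refitted, where its mean was -0.93. Only 1 of its own 6 spots is marked, on slide 1.

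ADR1 encodes the zinc finger activator of genes for ethanol, glycerol and fatty acid use. Its signals were 1073 and 860 units in BF2B and 267 and 584 units in BF2. BF2B was the brighter channel on both slides, although the BF2 signal of slide 1 was not above background. The log2 ratio was 1.35 on slide 1 and 0.69 on slide 2, a mean of 1.02 ± 0.46. ADR1 was not called because slide 2 stayed under 2-fold, and it was the uncalled member nearest to the limit. The slides differed more than the spots did, with 1.17 to 1.47 on slide 1 and 0.60 to 0.77 on slide 2. It was called by the mean of both slides, at 1.5-fold, on slide 1 alone, and with slides scaled to a common spread, where its mean was 1.81.

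**Figure D2:**
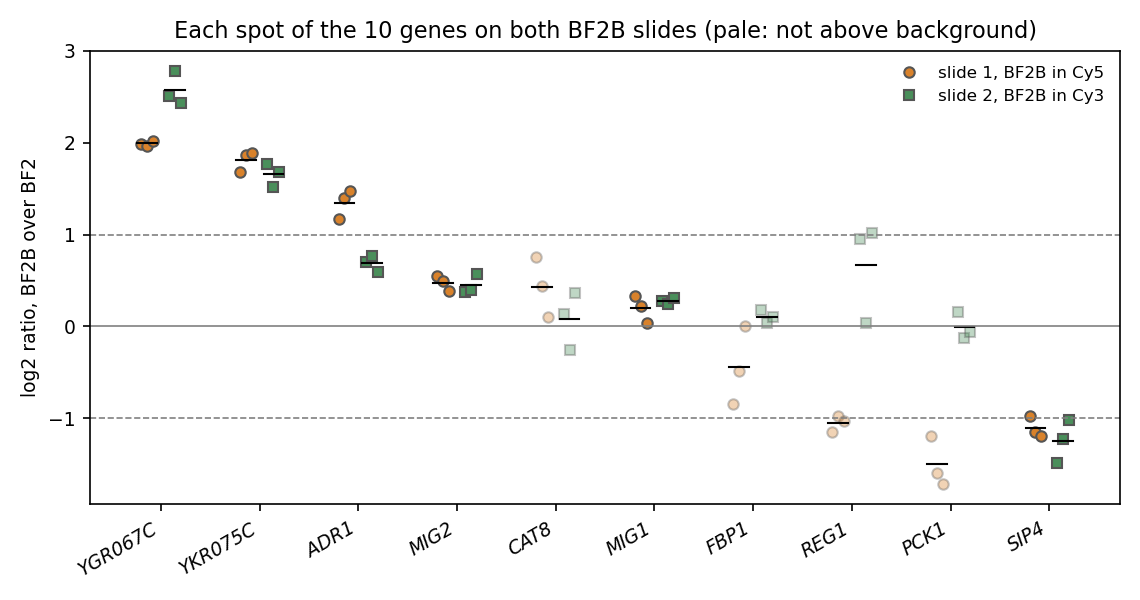
Log2 ratio of BF2B over BF2 for each of the 3 spots of each gene on slide 1 (orange circles, BF2B in Cy5) and slide 2 (green squares, BF2B in Cy3), with the mean of each slide as a bar and the 2-fold limits dashed. Pale symbols mark genes not above background. YGR067C, YKR075C and SIP4 passed 2-fold in slide means on both slides, ADR1 on slide 1 only, and the ratios of REG1 and PCK1 differed between dye orientations.

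MIG1 encodes the zinc finger repressor that Snf1 inactivates when glucose runs out. It was bright in both strains, with 3691 and 3770 units in BF2B and 3161 and 3586 units in BF2. All 6 spot ratios were above 0 but small, from 0.04 to 0.33. The mean log2 ratio was 0.24 ± 0.06, number 1029 from the top among 4660 genes.

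MIG2 encodes a repressor related to Mig1 whose transcription glucose induces. It read 5502 and 5276 units in BF2B and 3828 and 4499 units in BF2. The log2 ratio was 0.47 on slide 1 and 0.45 on slide 2, a mean of 0.46 ± 0.02, with spots between 0.37 and 0.57. The 2 slides gave nearly the same value, below the 2-fold limit. The third member of this repressor family, MIG3, stood at -0.40 ± 0.12 and was not called either.

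CAT8 encodes the zinc cluster activator at the head of the gluconeogenic programme. It gave 103 and 63.8 units in BF2B and -49.3 and 120 units in BF2. None of the 4 values was above background, so its level could not be compared between the strains.

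REG1, the regulatory subunit that directs the phosphatase to Snf1, gave 41.8 and 120 units in BF2B and 102 and 79.5 units in BF2, all of them not above background. The corrected log2 ratio was -1.06 on slide 1 and 0.67 on slide 2. The brighter strain was thus the one labelled with Cy3 on both slides, and no direction can be given. Opposite signs on both slides were common, at 43.9% of all 6388 gene probes. Its duplicate gene REG2 was dim too, with BF2B above background on slide 1 alone, and its mean log2 ratio was 0.46 ± 0.96.

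FBP1 encodes fructose-1,6-bisphosphatase, an enzyme used in gluconeogenesis and not in glycolysis. Its signals were 18.2 and -68.7 units in BF2B and -75.2 and 36.7 units in BF2. Its 4 signals scattered around 0 and the transcript was not detected in either strain.

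PCK1 encodes phosphoenolpyruvate carboxykinase, which carries out the first committed step of gluconeogenesis. It gave 81.2 and 164 units in BF2B and 341 and 232 units in BF2. BF2 was the brighter channel on both slides and exceeded the blank spots, but fewer than 2 of its 3 spots were above local background on each slide. The log2 ratio was -1.50 on slide 1 and -0.01 on slide 2, a mean of -0.76 ± 1.05. A gap between slides of this size or more occurred in 3.26% of all gene probes, and PCK1 was not counted among the lower genes.

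**Figure D3:**
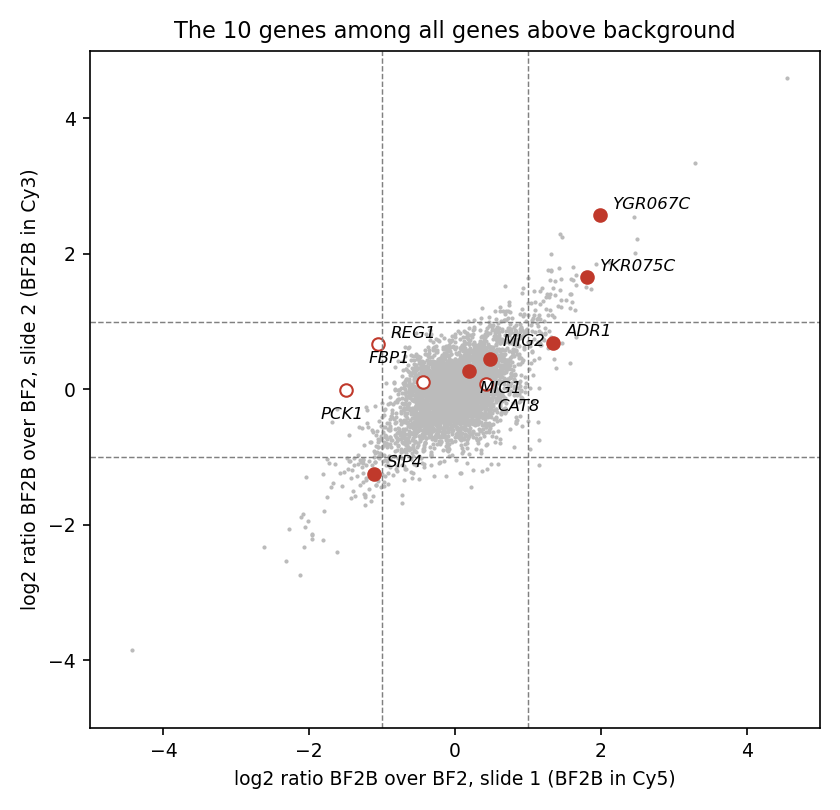
Log2 ratio of BF2B over BF2 on slide 2 against slide 1 for the genes above background (grey points) and the 10 genes (red, open where not above background), with the 2-fold limits dashed. YGR067C and YKR075C lie in the upper right corner, SIP4 just inside the lower left corner, and PCK1 and REG1 off the diagonal.

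The pairs of ratios of YKR075C and SIP4 were set beside those of the 2529 genes above background in both channels of both BF2B slides, by Euclidean distance over the 2 log2 ratios. The genes nearest to YKR075C were ITR1, an inositol transporter gene, at a distance of 0.07, SRL1 at 0.15 and YOR248W at 0.18. The genes nearest to SIP4, whose BF2B signal was above background on slide 1 alone, were FMP16 at 0.01, YFL006W at 0.04 and URA1, of pyrimidine synthesis, at 0.06. None is given for YGR067C, whose ratio is only bounded. These distances rest on 2 hybridisations of 1 RNA pair and describe likeness of values only.

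No annotated gene overlaps any of the 10 in the R64 gene table, which matters because the labelled strand is not given. Genes next to a called member were looked up by position, after the values were known. GID10, next to YGR067C, encodes a substrate receptor of the ubiquitin ligase that marks gluconeogenic enzymes for degradation. It gave 989 and 1338 units in BF2B beside 2864 and 3413 units in BF2, all above background. Its log2 ratio was -1.25 ± 0.28, called lower, opposite to the higher YGR067C. ECM4, a glutathione transferase gene next to YKR075C, stood at -1.08 ± 0.23 and was not called, since slide 1 gave -0.92. The neighbours of SIP4, DPB11 and ARG3, stood at 0.17 and -0.66.

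Around the 10 genes, 8 lists of the pathway were read, holding 73 genes of which 47 were above background on the BF2B slides. Of these 47 genes, 2 were called higher and 2 lower, with a median log2 ratio of -0.07, beside -0.01 over all genes above background. Without the members it was 43 genes, 2 higher, 1 lower and a median of -0.08. The share called can be set beside 2.98% of all genes, and nothing particular to the pathway is read from it. YGR067C and YKR075C are on no list.

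Among the activators of non-fermentable carbon use, 6 of 8 were above background, with a median of 0.26, 1 higher and 1 lower. This median was 0.96 with both channels above background, 0.85 with marked spots left out and 0.01 with the filter on blank spots. HAP4, the regulated activating subunit of the complex that drives respiratory genes, gave 3851 and 4758 units in BF2B against 1388 and 1860 units in BF2. Both BF2B signals exceeded both BF2 signals, and the log2 ratio was 1.42 ± 0.11, called higher. SIP4 was the lower gene of this list and ADR1 the farthest uncalled, so the activator genes went both ways.

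Of 14 Cat8 and Sip4 targets, 7 were above background, with a median of -0.07 and 0 called in either direction. The farthest of them, MDH2, the cytosolic malate dehydrogenase gene, stood at -0.90 ± 0.05. The median of these targets moved with the processing. It was -0.48 with both channels above background and -0.27 with marked spots left out. In the deposited table it was 0.11, and on slide 1 alone 0.36. ICL1 and MLS1, the glyoxylate cycle genes, did not meet the background rule on both slides, like FBP1 and PCK1. Of 13 Adr1 targets, 7 were above background, with a median of -0.18, 0 higher and 1 lower. The lower gene was CTA1, the peroxisomal catalase gene, at -1.03 ± 0.01. However, BF2B was above background on slide 1 alone and BF2 on slide 2 alone, each time in Cy5. Neither slide thus had a measured level in both channels. PEX11, a peroxisome membrane protein gene, was the farthest uncalled Adr1 target at -0.35 ± 0.31. ADH2, the alcohol dehydrogenase gene that is a standard Adr1 target, was above background in both strains and stood at -0.09 ± 0.09.

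None of the upstream components above background was called. Of the 8 genes for Snf1 kinase subunits and its upstream kinases, 7 were above background, with a median of -0.14 and 0 called. SNF1 itself stood at -0.50 ± 0.54. It was above background only in the Cy5 channel, which held BF2B on slide 1 and BF2 on slide 2. Among the Glc7 phosphatase and hexose kinase genes 4 of 7 were above background, with a median of 0.25 and 0 called. HXK2, the main glucose-phosphorylating hexokinase gene, reached 0.98 ± 0.33 and passed 2-fold on slide 1 alone, with 1.21. Among the repressors and their corepressor 6 of 7 were above background, with a median of 0.05 and 0 called. NRG1, a repressor gene that also acts on glucose-repressed genes, lay just outside the rule at -0.99 ± 0.05, with -1.03 and -0.96.

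Of 11 sugar genes under Mig1 repression, only 4 were above background, with a median of 0.60, 1 higher and 0 lower. HXT4, a hexose transporter gene, was the higher one at 1.48 ± 0.16, and the maltose permease gene MAL31 was the farthest uncalled at 0.75 ± 0.16. HXT2, a hexose transporter gene of the same list, stood at -0.73 ± 0.06. The invertase gene SUC2 did not meet the background rule, with BF2B above background on slide 1 alone and BF2 on neither slide. Of the 8 genes of the GID ubiquitin ligase, all were above background, with a median of -0.15 and 0 called, and GID10 is not on that list. VID24, which encodes the main substrate receptor of that ligase, was the farthest at 0.44 ± 0.05.

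**Figure D4:**
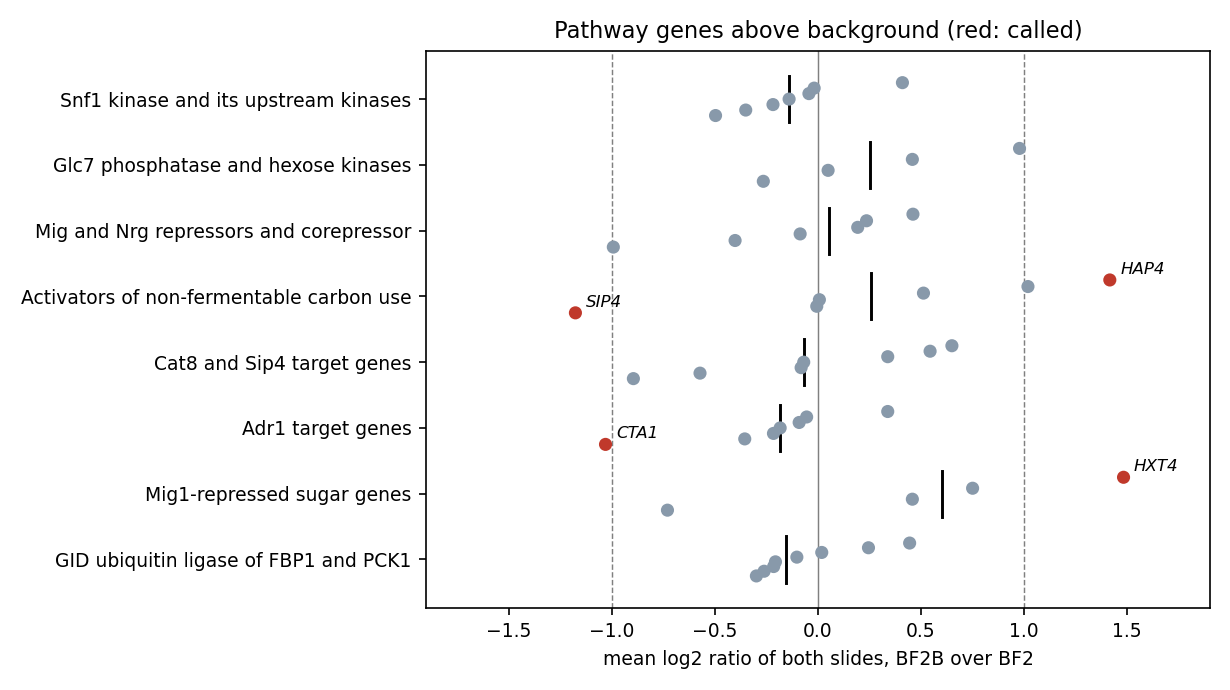
Mean log2 ratio of BF2B over BF2 from both slides for every listed pathway gene above background, with the list median as a black bar, called genes in red and the 2-fold limits dashed. HAP4 and HXT4 were higher and SIP4 and CTA1 lower, and all list medians lay between -0.18 and 0.60.

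In the sample labelled BF2S all 10 genes were above local background in 1 or both channels of each slide. Of the 10, 4 were called higher and 1 lower, where 44.4% of 5290 genes were called, 19.3% higher and 25.1% lower. BF2S signals of 9 of the 10 genes lay below the 95th percentile of blank spots in that channel, 10638 and 10370 units on the 2 slides. REG1 alone exceeded it, and under a filter on blank spots it was called, as were 6.62% of 1178 genes in the higher direction.

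REG1 gave 11672 and 16031 units in the BF2S channel and 2820 and 6030 units in the BF2 channel. The BF2 channel of the BF2B slides had given only 102 and 79.5 units with the same reference strain and the same dyes. The BF2 signal of 2820 units was itself below the 95th percentile of blank spots in its channel, 3069 units. Of the 1589 genes not above background in BF2 on both BF2B slides, only 2 reached these BF2 signals on the BF2S slides, REG1 and CPR7, a cyclophilin gene named after its values were seen. The log2 ratio of BF2S over BF2 was 3.56 and 5.03, a mean of 4.30 ± 1.04, and it was 1.68 under median centring in place of loess. The size of the REG1 ratio thus turned on the correction, although it stayed above 0 in all 9 alternative values.

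YGR067C, CAT8 and FBP1 were the other higher genes, with log2 ratios of 1.24 ± 0.23, 1.26 ± 0.35 and 1.61 ± 0.42. Their BF2S signals on slide 1 were 2098, 1380 and 1368 units, below the blank spot median of 6049 units, and on slide 2 none of the 3 was above background in BF2S. A level in BF2S was therefore not measured for these genes in more than 1 hybridisation. For all 3 genes BF2 was above background on slide 2 alone. Each slide thus had a measured level only in its Cy5 channel, and no slide in both. On slide 2 all 3 genes were dimmer in BF2S than in BF2. YGR067C read 543 against 576 units, CAT8 309 against 503 and FBP1 115 against 330. Their slide 2 log2 ratios after correction were nevertheless above 0, at 1.07, 1.01 and 1.31. In the authors' deposited table, which is uncentred, YGR067C stood at 1.93 and -0.19, CAT8 at 2.44 and -1.11 and FBP1 at 3.77 and -0.15. The medians of these columns were 0.23 on slide 1 and -0.80 on slide 2. YGR067C and FBP1 thus lay above the column median on both slides, and CAT8 on slide 1 alone.

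MIG1 was the lower gene, from 1846 and 679 units in BF2S and 4202 and 3462 units in BF2. The log2 ratio was -1.25 ± 0.09, with all 6 spots below 0, although BF2S was not above background on slide 2. YKR075C read 1675 and 964 units beside 2987 and 2594 units in BF2. Its log2 ratio of -0.81 ± 0.22 was not called, and BF2S was above background on slide 1 alone. SIP4 stood at -1.04 ± 0.42, ADR1 at -0.72 ± 0.19 and PCK1 at 0.63 ± 0.23, none of them called. In the authors' uncentred table YKR075C stood at -1.50 and -1.57 and SIP4 at -1.26 and -4.28. Both were called lower with those values. MIG2 gave 0.72 on slide 1 and -0.41 on slide 2, and a mean of -0.89 under median centring, so no direction can be given.

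**Figure D5:**
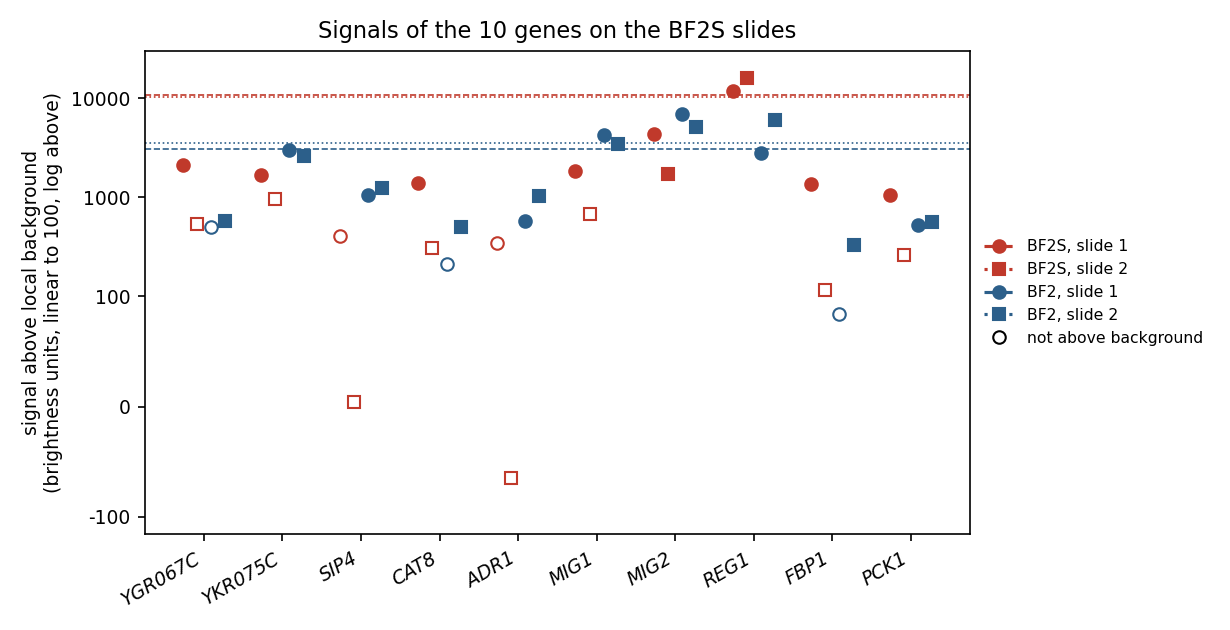
Signals of the 10 genes on both BF2S slides, drawn as for the BF2B slides, with red for the sample labelled BF2S and blue for BF2. The red lines mark the 95th percentile of blank spots in the BF2S channel, 10638 and 10370 units, and REG1 is the one gene above them.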

How the data were processed

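The 4 scanner files deposited by the authors hold, per the file headers, spot and local background intensity in the Cy5 and Cy3 channels, with 3 spots for each of 6388 gene probes. The sources used here do not name the scanner or extraction software, the labelled strand, or what a mark on 0 to 67.3% of gene spots per slide means, and marked spots were kept. The deposited value table holds log2 ratios. Set against the scanner files, they lay nearest to log2 of strain over BF2 from the first spot of a probe, uncentred, with 63.4% to 69.8% of values within 0.001, column medians of 0.20, -0.29, 0.23 and -0.80 and a correlation of at least 0.9998.

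Spot medians were corrected by normexp with an offset of 50 and by loess fitted to gene spots (limma 3.58.1, R 4.3.3), averaged over the 3 spots and turned to strain over BF2 by the labelled dyes. Python 3.11.15 with pandas 2.3.3 and numpy 2.4.6 made the tables, and matplotlib 3.10.9 drew the figures. The steps were tested on simulated data. Of the probes, 5849 were named from the RefSeq R64 gene table by systematic name and 539 kept the systematic name. None of the spots of the 10 genes was saturated. On arrays, signal over background limits the precision.

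The 10 genes and the lists were chosen with earlier results of these data known. Named genes were the 10 members, every called gene and the farthest uncalled gene of each list, the duplicates MIG3, REG2 and YOR062C, the deleted and plasmid-borne genes and the 3 nearest genes of each called member, given for YKR075C and SIP4. ADH2, HXT2, SUC2, ICL1 and MLS1 of the lists, the neighbouring genes and CPR7 were added after the values were seen. Alternatives changed background, normalisation, spots, filters, threshold, slides and value source.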

Additional observations from a re-analysis of the deposited data

Results flagged for a closer look

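For YKR075C, ADR1 and MIG1, above background in both comparisons, both BF2B slides and both BF2S slides lay on opposite sides of BF2. The share of all genes with this pattern was not counted, so it is not read as particular to these genes. PCK1, not above background in BF2B, had -1.50 and -0.01 there and 0.47 and 0.80 in BF2S, a difference of 1.39. The difference of the log2 ratios, BF2S minus BF2B, was -2.54 for YKR075C, with 1.81 and 1.66 in BF2B and -0.96 and -0.65 in BF2S. It was -1.74 for ADR1, with 1.35 and 0.69 in BF2B and -0.85 and -0.59 in BF2S, where the BF2S signals of 348 and -65.2 units were not above background. For YKR075C and MIG1 the BF2S signal was above background on slide 1 alone. The difference of MIG1 was -1.49, with 0.19 and 0.28 in BF2B and -1.19 and -1.31 in BF2S. These differences were not tested, because each comparison is 1 RNA pair and both share the strain BF2. The BF2S signals of all 3 genes lay below the blank spot medians of 6049 and 5325 units, and the part of the bright blank spots in the differences was not tested.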

How the results depend on the processing

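No paired analysis was possible because each comparison, a dye swap taken as 1 RNA pair, gave no test. In BF2B, YKR075C was called higher under every alternative run, YGR067C under all but those that left out marked spots or asked for both channels above background, and SIP4 was lost under these, without background subtraction and at 3-fold. The number of the 10 genes called was then 1 with both channels above background and 1 with marked spots left out, and 3 to 4 on single slides. Over all genes the BF2B count of 139 became 411 at 1.5-fold, 30 at 3-fold, 445 with slides scaled to a common spread, which widened the BF2B ratios by construction, and 246 to 262 on single slides. The 4 listed genes called became 10 at 1.5-fold, 0 at 3-fold, 11 with scaling, 2 each with both channels above background, with marked spots left out and without background subtraction, and 4 to 8 on single slides. In BF2S, the 5 genes called became 8 at 1.5-fold, 2 without background subtraction or with marked spots left out, and 1 at 3-fold, with scaling, above blank spots or with both channels above background. They numbered 5 to 6 on single slides. In the deposited table REG1 was called higher and YKR075C, SIP4 and MIG1 lower, so only 2 of the 5 calls were kept. The BF2S count of 2351 became 1102 at 3-fold, 721 above blank spots, 780 with both channels above background, 1473 in the deposited table, 1303 with marked spots left out, 849 with scaling and 2784 to 3002 on single slides. Its split of 1023 higher and 1328 lower was 131 and 718 with scaling and 437 and 1036 in the deposited table, and median centring moved the median of all genes from 0.05 to -0.12. Of 364 further values, 291 moved by less than the SD of the slides, 73 moved by more, and 0 of the called ones changed sign. The 291 include values that could not count as moved. With 2 slides, the ratio or difference of a gene on a single slide always lies within 1 SD of the mean of both. List medians do not depend on the fold rule. Where a count changed, the cause was not tested.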
